A study of Homo sapiens with 18 samples.

Results

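The keratin regions described here are stretches of open chromatin at the keratin genes of chromosomes 12 and 17 in 3 head and neck squamous cell carcinoma lines. They were taken from the deposited table of accessible regions by position alone: a region belonged to the set if it lay within 10 kb of the body of a protein-coding gene whose symbol is KRT followed by a digit, and it was given to the nearest such gene. This gave 70 of 115087 regions, 42 on chromosome 12 and 28 on chromosome 17, at 35 of 55 keratin genes. The other 20 keratin genes, among them KRT4, KRT6C and KRT20, had no region. Open DNA was read by ATAC-seq (cutting and tagging of accessible chromatin by the enzyme Tn5) in the cell lines SCC1 (UM-SCC-1), SCC6 (UM-SCC-6) and SCC25. Each line received cetuximab, an antibody that blocks the EGF receptor, at 100 nM every day for 5 days, or PBS as the untreated control. Each of the 6 groups held 3 libraries, apart from SCC1 PBS with 2, since SCC1 PBS replicate 2 was not analysed here. Each line is a single established tumour line, so a difference between lines is a difference between 3 lines and not between kinds of tumour, and nothing in the labels says that replicates came from separate cultures, so p-values measure the spread between libraries, which may be technical.

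Keratins are the intermediate filament proteins of epithelial cells. A filament needs a type I and a type II keratin in equal amounts, and most type II genes lie in the cluster on chromosome 12 and most type I genes in the cluster on chromosome 17. The pair made depends on the kind of epithelium: KRT5 with KRT14 in basal keratinocytes, KRT8 with KRT18 and KRT19 in simple epithelia, KRT6 with KRT16 and KRT17 in wounded or hyperproliferative epidermis, KRT1 with KRT10 in cornifying layers, KRT4 with KRT13 in mucosa, and a long series of further keratins in the hair and its sheath. Keratins are used in pathology to tell squamous from glandular carcinomas.

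Of the 70 regions, 30 overlapped the body of a keratin gene and 22, at 12 genes, lay within 1 kb of an annotated start of their own gene. The regions had a median width of 286.5 bases and a median GC content of 55.1%, against 258 bases and 45.9% over all regions. The motif TGANTCA, bound by AP-1, was found in 26 keratin regions (37.1%, against 33.5% of all regions), GGAATG, bound by TEAD factors, on either strand in 31 (44.3% against 23.3%), and GCC and GGC with any 3 bases between them, bound by AP-2 factors, in 9 (12.9% against 14.5%), and none held a p53 family site (0.102% of all regions). The median widths differ, and a longer region holds a given motif more often.

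The 3 distal elements below are shown because results turn on them: the KRT5 element was at 1 read in every untreated SCC6 library and open in the other lines, and the KRT71 and KRT72 elements rose under cetuximab in SCC6. Each sequence is from GRCh37 and is read on the strand of its gene, 5′ to 3′. Capitals mark GGAATG or its reverse complement and TGANTCA.
KRT5, upstream element, chr12:52918363-52918602, minus strand: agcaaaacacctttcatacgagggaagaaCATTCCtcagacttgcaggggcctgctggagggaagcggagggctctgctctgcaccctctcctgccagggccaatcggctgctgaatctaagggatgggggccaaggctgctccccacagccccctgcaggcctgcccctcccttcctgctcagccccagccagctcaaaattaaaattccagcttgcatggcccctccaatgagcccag
KRT71, element past the gene end, chr12:52932786-52933078, minus strand: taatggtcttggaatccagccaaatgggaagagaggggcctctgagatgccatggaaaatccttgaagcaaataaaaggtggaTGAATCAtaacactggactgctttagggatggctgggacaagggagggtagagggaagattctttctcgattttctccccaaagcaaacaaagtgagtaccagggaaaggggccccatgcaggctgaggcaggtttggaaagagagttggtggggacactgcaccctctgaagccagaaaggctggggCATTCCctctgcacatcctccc
KRT72, element past the gene end, chr12:52973973-52974177, minus strand: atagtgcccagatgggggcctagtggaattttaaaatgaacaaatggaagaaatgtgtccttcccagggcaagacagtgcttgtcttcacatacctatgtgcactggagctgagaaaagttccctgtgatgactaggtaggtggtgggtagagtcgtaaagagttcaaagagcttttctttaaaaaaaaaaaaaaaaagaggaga

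The KRT5 element held 1 GGAATG. The KRT71 element held 1 TGANTCA and 1 GGAATG, on either strand, and no listed motif was found in the KRT72 element. Close to the starts, over the 55 keratin genes, 34 canonical starts (61.8%) had TATAAA or ATAAAA in the 45 bases before them, against 1103 of 19894 protein-coding genes (5.54%). This motif was chosen after the sequences had been read.

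Signal is the deposited value: whole reads per region, with 0 set to 1, times 1 scaling factor per library. Recovered reads in regions ranged from 2194851 to 15017130 per library. In a library 7 to 13 of the 70 keratin regions were at the floor of 1 read. Keratin regions took 0.0615% and 0.0653% of reads in regions in the SCC1 PBS libraries and 0.0867% to 0.106% with cetuximab, 0.0654% to 0.0677% and 0.0640% to 0.0750% in SCC6, and 0.0490% to 0.0537% and 0.0567% to 0.0635% in SCC25, in the same order. Each library's peak list had a peak over 1 to 53 keratin regions. No keratin region had a peak in all 17 libraries, whereas 4.72% of all regions did.

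Of the 70 regions, 7 were at 1 read in all 17 libraries and have no measured level here. They lay on chromosome 17 between bases 39071541 and 39574205, at KRT23, KRT39, KRT33B (2 regions), KRT31 (2 regions) and KRT37, which apart from KRT23 are hair keratins. Peaks were listed over each of them in 2 to 6 libraries, with a fold enrichment of up to 8.11 at KRT33B. Of their 50-base windows, 99.3% to 100% occurred only once in the genome. Over all regions, 2.82% were at 1 read in all libraries. The reason was not tested, and nothing about hair keratins of chromosome 17 can be read from these 7 values.

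In untreated cells the largest differences at keratin genes were between SCC6 and the other 2 lines. At the basal keratins KRT5 and KRT14, SCC6 had little signal at the gene starts, whereas SCC1 and SCC25 had signal there. The same held at an element 4.30 kb before KRT5 and another 1.55 kb before KRT14, but not at every upstream region. At 1.57 kb before the KRT5 start SCC6 lay between the other lines, with PBS means of 19.9 in SCC1, 25.7 in SCC6 and 37.5 in SCC25. At the starts of the simple epithelial keratins KRT8 and KRT19, SCC6 had the highest signal of the 3 lines. Differences were tested with limma on log2(signal + 1) and Benjamini-Hochberg adjustment over all regions, and a log2 difference on this scale understates the change of regions near the floor. In a bulk library, fewer cells with an open region and less opening in each cell cannot be told apart.

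Between SCC6 and SCC1, 55 keratin regions passed the filter on low signal, of which 14 were higher in SCC6 (30.7% of all tested regions were) and 21 were lower (30.5%). Between SCC25 and SCC6, 16 of 55 were higher in SCC25 (36.7% of all) and 23 lower (32.1%). Between SCC25 and SCC1, 6 of 55 were higher in SCC25 (28.2% of all) and 18 lower (23.1%). These comparisons share their PBS libraries. As shares of the keratin regions these counts were 25.5% and 38.2%, 29.1% and 41.8%, and 10.9% and 32.7%, so that in each comparison the share of lower calls was above that of all regions and the share of higher calls below it. The split depended on the scaling and on single libraries. With the trend with GC content removed, 19 were higher and 15 lower in SCC6 than in SCC1, and with each library centred on its median, 3 were higher and 26 lower in SCC25 than in SCC1. The 6 higher in SCC25 than in SCC1 became 2 without SCC1 PBS replicate 1, 9 without SCC1 PBS replicate 3 and 3 without SCC25 PBS replicate 1 or 3, and the 18 lower became 11 without SCC25 PBS replicate 2. The direction differed between kinds of keratin.

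**Figure D1:**
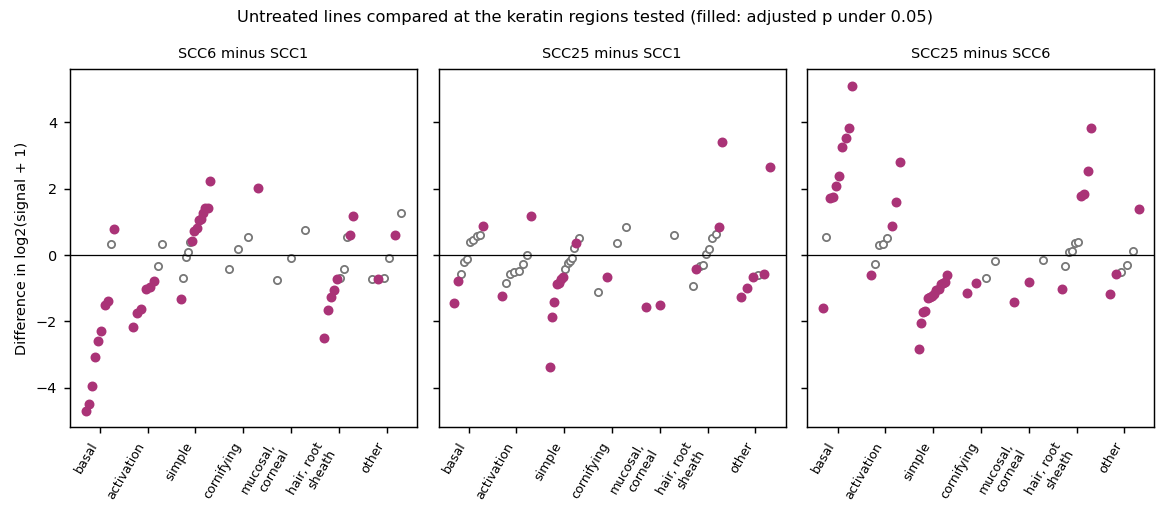
Differences in log2(signal + 1) between the PBS groups at each keratin region tested, by kind of keratin. Each point is 1 region, and filled points passed the test at an adjusted p of 0.05. Basal keratin regions lie mostly below 0 for SCC6 minus SCC1 and above 0 for SCC25 minus SCC6, and the 14 simple keratin regions lie below 0 for SCC25 minus SCC6.

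For the basal keratins KRT5, KRT14 and KRT15, 8 of 10 tested regions were lower and 1 higher in SCC6 than in SCC1, with a median log2 difference of -2.44, and 8 were higher and 1 lower in SCC25 than in SCC6, with a median of 2.24. Over all regions tested these medians were -0.06 and 0.06. The KRT5 start region (chr12:52914068-52914346, over exon 1) had a signal of 23.4 and 58.1 in the 2 SCC1 PBS libraries, 1.21, 5.35 and 5.44 in SCC6 and 52.8, 58.4 and 42.4 in SCC25. A peak was listed over this region in only 1 library, of SCC1, with a fold enrichment of 2.39. Every SCC6 library was below every library of the other lines. The log2 difference was -3.08 ± 0.51 (SE) for SCC6 against SCC1 (limma adjusted p = 7.8e-05) and 3.53 ± 0.45 for SCC25 against SCC6 (limma adjusted p = 4.8e-06).

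KRT14 makes the type I partner of KRT5. Its start region (chr17:39743131-39743396) had 35.1 and 42.4 in SCC1, 1.21, 2.68 and 1.09 in SCC6 and 39.9, 36.1 and 31.4 in SCC25. The log2 difference of SCC6 to SCC1 was -3.95 ± 0.43 (limma adjusted p = 1.0e-06), and SCC25 was 3.83 ± 0.38 above SCC6 (limma adjusted p = 3.0e-07). Of the 50-base windows of this region 88.9% occurred once in the genome. The upstream region centred 1.55 kb before the start (chr17:39744445-39744957) gave the same order of SCC6 against the others, with 97.6 and 80.4 in SCC1, 1.21, 4.68 and 2.18 in SCC6 and 35, 25.2 and 36.5 in SCC25. Here SCC25 was also below SCC1, by a log2 difference of -1.45 ± 0.44 (limma adjusted p = 0.012).

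The KRT5 element centred 4.30 kb before the start (printed above) was at 1 read in all 3 SCC6 PBS libraries. It had 37.7 and 50.2 in SCC1 and 65.9, 64.2 and 72.1 in SCC25. Set against a floor of 3 reads per library, SCC1 was at least 14.8-fold higher and SCC25 at least 22.7-fold higher than SCC6. With cetuximab, 2 of the 3 SCC6 libraries had more than 1 read there, at 14.1 and 10.6, and the third stayed at 0.928. The KRT5 promoter region with the highest mean signal (chr12:52915077-52915378, 1.05 kb before the start) was less extreme, with 15.7, 23.4 and 25 in SCC6 against 58.5 and 53.6 in SCC1 and 72.0, 69.2 and 78.9 in SCC25.

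KRT15, a type I keratin of basal cells and of hair follicle stem cells, had regions of both orders. Its highest promoter region (chr17:39678045-39678690, at the start of an alternative transcript 3.23 kb upstream) had 209, 168 and 224 in SCC6, 116 and 113 in SCC1 and 74.6, 64.2 and 58.5 in SCC25. SCC6 was the highest line there, with a log2 difference of 0.79 ± 0.17 to SCC1 (limma adjusted p = 0.00071). A second KRT15 region 0.85 kb before the start, chosen after its values were seen, had SCC6 as the lowest line, as KRT5 and KRT14 did, with 27.8, 22.1 and 4.35 in SCC6, 95.0 and 56.9 in SCC1 (log2 difference -2.29 ± 0.52, limma adjusted p = 0.0013) and 51.6, 49.8 and 45.8 in SCC25 (1.71 ± 0.47 above SCC6, limma adjusted p = 0.0041).

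**Figure D2:**
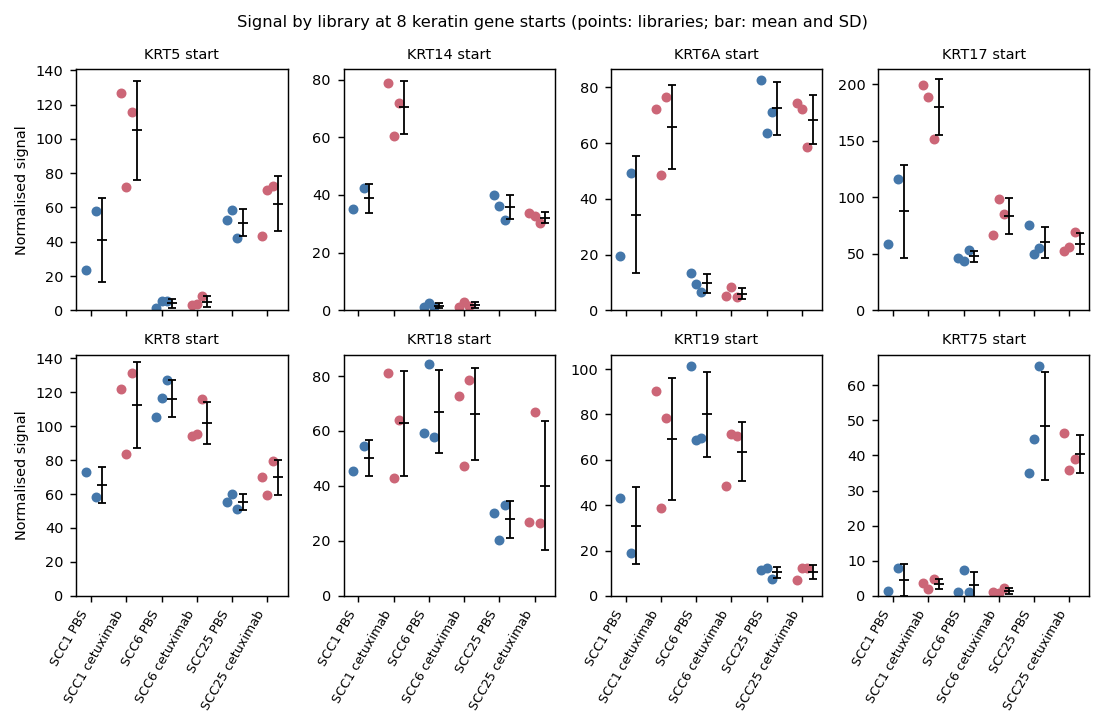
Signal in each of the 17 libraries at the start regions of 8 keratin genes, as points by group (blue PBS, red cetuximab), with the mean and SD beside them. KRT5 and KRT14 are near 0 in SCC6, KRT75 is above 30 only in SCC25, and KRT8 and KRT19 are highest in the SCC6 PBS libraries among the untreated groups.

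For the simple keratins KRT7, KRT8, KRT18 and KRT19, 9 of 14 tested regions were higher and 1 lower in SCC6 than in SCC1, with a median of 0.78, and all 14 were lower in SCC25 than in SCC6, with a median of -1.22. The KRT8 region with the highest signal (chr12:53318903-53320429, at the start of an alternative transcript 20.81 kb upstream) had 165 and 192 in SCC1, 472, 474 and 479 in SCC6 and 248, 210 and 238 in SCC25. The SCC6 libraries were above all others by a log2 difference of 1.41 ± 0.11 to SCC1 (limma adjusted p = 2.1e-08) and SCC25 differed from SCC6 by -1.03 ± 0.10 (limma adjusted p = 1.3e-07). The region at the start of the canonical KRT8 transcript (chr12:53298806-53299137, chosen after its values were seen) had 72.9 and 58.1, then 105, 116 and 127, then 55.0, 59.9 and 50.9, in the same order. Its log2 differences were 0.82 ± 0.19 (limma adjusted p = 0.0013) and -1.06 ± 0.17 (limma adjusted p = 4.0e-05).

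KRT19, a small type I keratin of simple and some basal epithelia, had a start region (chr17:39684521-39684812) with 42.9 and 19.0 in SCC1, 101, 68.9 and 69.6 in SCC6 and 11.3, 12.3 and 7.63 in SCC25. The 3 lines did not overlap. SCC6 was above SCC1 by 1.43 ± 0.37 (limma adjusted p = 0.0033, and 0.071 without SCC1 PBS replicate 3) and SCC25 below SCC6, by a difference of -2.83 ± 0.33 (limma adjusted p = 1.5e-06). An upstream KRT19 region 7.95 kb before the start was instead highest in SCC1, at 79.4 and 69.2, against 32.6, 24.8 and 30.5 in SCC6 and 7.16, 7.93 and 4.24 in SCC25. KRT18, the partner of KRT8, has a start region that an alternative KRT8 transcript also covers. It differed less, with 45.5 and 54.7 in SCC1, 59.2, 84.3 and 57.6 in SCC6 and 30.1, 20.2 and 33.1 in SCC25. SCC6 and SCC1 did not pass the test there (log2 difference 0.40 ± 0.27, limma adjusted p = 0.22), and SCC25 was below SCC6 (-1.25 ± 0.25, limma adjusted p = 0.00032).

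The KRT7 regions showed how far regions of 1 gene can differ. The intronic region 2.90 kb past the start had 84.6, 68.9 and 56.6 in SCC6, 7.81 and 24.6 in SCC1 and 26.0, 28.8 and 11.0 in SCC25 (log2 difference of SCC6 to SCC1 2.22 ± 0.45, limma adjusted p = 0.00054). The region 1.21 kb before the start was lower in SCC25 than in SCC1, by a log2 difference of -1.88 ± 0.34 (limma adjusted p = 0.00031), and lower in SCC25 than in SCC6 (-1.18 ± 0.31, limma adjusted p = 0.0029), while SCC6 against SCC1 did not pass (-0.70 ± 0.34, limma adjusted p = 0.091).

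Levels of different genes are given here per length only, without correction for GC content or for the share of unique windows. In SCC6 PBS the mean signal per 100 bases was 35 at the KRT8 start, 27.4 at KRT19, 21.2 at KRT18, 9.77 at KRT17, 2.59 at KRT6A, 1.43 at KRT5 and 0.623 at KRT14. In SCC1 PBS the 7 starts were much closer together, from 9.13 at KRT6A and 10.6 at KRT19 to 14.6 at both KRT5 and KRT14, 15.9 at KRT18, 17.9 at KRT17 and 19.7 at KRT8. In SCC25 PBS the level was 19.3 at KRT6A, 18.3 at KRT5, 16.6 at KRT8, 13.5 at KRT14, 12.4 at KRT17, 8.80 at KRT18 and 3.56 at KRT19.

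For the activation keratins KRT6A, KRT6B, KRT16 and KRT17, 6 of 8 tested regions were lower and 0 higher in SCC6 than in SCC1, with a median of -1.0. The KRT6A start region had 19.5 and 49.1 in SCC1, 13.3, 9.37 and 6.53 in SCC6 and 82.5, 63.5 and 71.3 in SCC25. SCC25 was the highest line and SCC6 the lowest, with a log2 difference of 2.82 ± 0.35 between them (limma adjusted p = 3.2e-06). SCC6 was below SCC1 by a difference of -1.63 ± 0.39 (limma adjusted p = 0.0020, and 0.060 without SCC1 PBS replicate 3). KRT6A, KRT6B and KRT6C are near-identical genes, and 90.8% of the 50-base windows of this region were unique. The KRT17 start had 58.5 and 116 in SCC1, 45.9, 43.5 and 53.3 in SCC6 and 75.7, 49.8 and 55.1 in SCC25, which differed between SCC6 and SCC1 (log2 difference -0.79 ± 0.28, limma adjusted p = 0.021, and 0.40 without SCC1 PBS replicate 3). At the KRT16 region 2.83 kb before the start, SCC1 was the highest at 40.3 and 60.3 and the other lines overlapped, at 19.3 to 30.5 and 14.4 to 30.9.

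Among the hair and root sheath keratins, 7 of 10 tested regions differed between SCC6 and SCC1, 2 higher and 5 lower (30.7% and 30.5% of all regions). KRT75, a type II keratin of the companion layer around the hair, was open at its start (chr12:52828215-52828495) in SCC25 alone among these lines, with 35, 44.7 and 65.3 in SCC25 PBS against 1.30 and 7.82 in SCC1 and 1.21, 7.36 and 1.09 in SCC6. The log2 difference was 3.41 ± 0.63 to SCC1 (limma adjusted p = 0.00037) and 3.82 ± 0.57 to SCC6 (limma adjusted p = 2.1e-05). The cornifying keratins KRT1, KRT2, KRT10 and KRT77 and the mucosal or corneal keratins KRT3 and KRT13 had 5 and 3 regions, none at a start of its own gene. KRT78, a type II keratin, had the region nearest the 10 kb limit, 8.45 kb from the gene body, with a PBS mean of 3.72 ± 2.1 (SD, n = 2) in SCC1, 11.5 ± 9.1 in SCC6 and 27.2 ± 3.9 (n = 3 each) in SCC25. The nearest region outside the limit, 11.1 kb from KRT78, had means of 15.3, 16.0 and 16.3.

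Copy number was not measured. Within 5 Mb of each keratin cluster, the other tested regions had median log2 differences of 0.37 on chromosome 12 and -0.08 on chromosome 17 for SCC6 against SCC1, 0.14 and -0.52 for SCC25 against SCC1, and -0.17 and -0.43 for SCC25 against SCC6. Centred on these medians, 11 keratin regions were higher and 23 lower in SCC6 than in SCC1, 4 and 16 in SCC25 than in SCC1, and 20 and 18 in SCC25 than in SCC6. Between SCC6 and SCC1 the calls at KRT5 1.05 and 4.30 kb upstream, at both KRT14 regions, at KRT8 20.81 kb upstream and at KRT15 3.23 kb upstream passed in each of 16 alternatives.

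**Figure D3:**
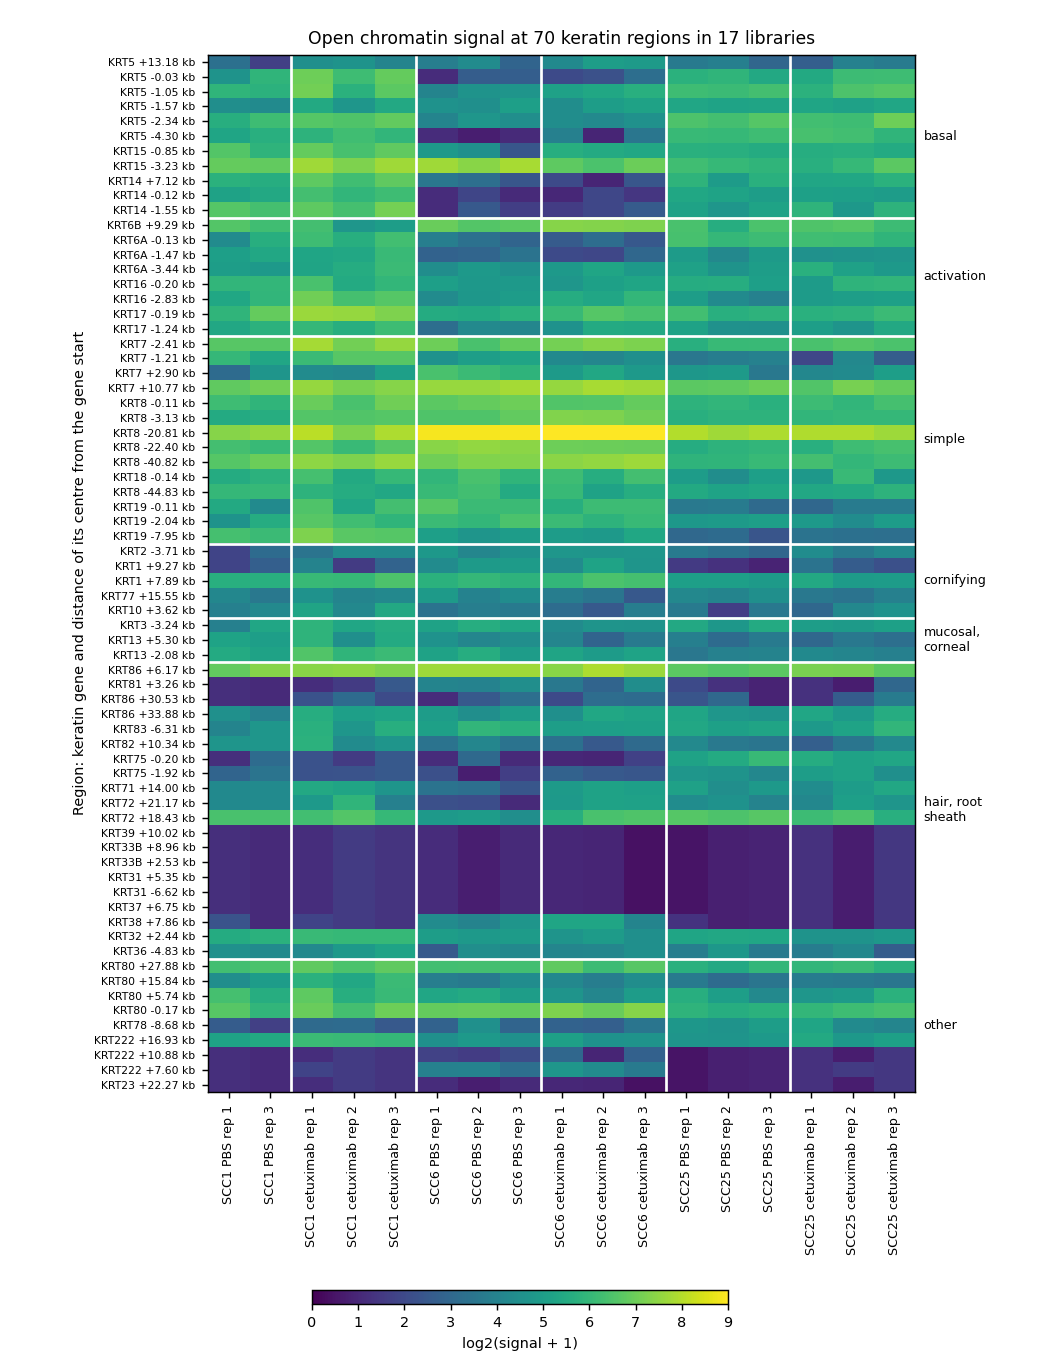
log2(signal + 1) at the 70 keratin regions (rows, by kind of keratin, named by gene and distance of the centre from the gene start, minus upstream) in 17 libraries (columns). The 7 uniformly dark rows are the regions at 1 read in every library, and the dark SCC6 cells among the basal rows are at some of the KRT5 and KRT14 regions.

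Whether 5 days of cetuximab changed keratin regions was asked in each line. In SCC1 59 keratin regions were tested: 15 passed the test as higher (25.4%, against 4.58% of all tested regions) and 1 as lower (1.69% against 6.56%). The median log2 change was 0.64, and the median over all regions was -0.09. Keratin regions lay within 1 kb of a protein-coding start more often than all regions did (32.9% against 15.8%). Of those at a start of their own gene 9 of 22 rose, and of the others tested 6 of 37. The share that rose among all start regions was not computed. In 28 of 59 every cetuximab library lay above both PBS libraries (15.9% of all regions did) and in 2 below (24.1%). The calls rested on 2 PBS libraries: 1 keratin region was called when PBS replicate 1 was left out and 6 when PBS replicate 3 was. Leaving out cetuximab replicates 1 and 3 gave 5 and 6, and leaving out replicate 2, the library with the fewest reads, gave 20. With each library centred on its median 25 rose and 1 fell, and the median of all regions was then 0.10.

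The KRT5 and KRT17 starts had the smallest adjusted p among the rises in SCC1. The KRT5 start went from 23.4 and 58.1 to 127, 72.0 and 116, a change of 1.44 ± 0.29 on the log2 scale (limma adjusted p = 0.00013, or 0.26 if PBS replicate 1 is left out). Every cetuximab library was above both PBS libraries. The KRT17 start went from 58.5 and 116 to 199, 189 and 152, a change of 1.11 ± 0.23 (limma adjusted p = 0.00017, and 0.30 without PBS replicate 1), also without overlap. KRT16, the other type I activation keratin, rose at the region 2.83 kb upstream from 40.3 and 60.3 to 132, 79.8 and 97.0 (1.02 ± 0.28, limma adjusted p = 0.0066, and 0.32 without PBS replicate 1). The KRT6A start went from 19.5 and 49.1 to 72.3, 48.7 and 76.7 (1.03 ± 0.34, limma adjusted p = 0.027), where the groups overlapped.

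By kind of keratin, 7 of 14 tested regions at simple, 4 of 11 at basal and 3 of 8 at activation keratins rose in SCC1, where 4.58% of all regions did. At hair and root sheath keratins 0 of 12 passed, with a log2 change above 0 at 9 and a median of 0.37. The difference between kinds was not tested. The KRT19 start went from 42.9 and 19.0 to 90.1, 38.9 and 78.2 (1.16 ± 0.34, limma adjusted p = 0.013), with overlapping groups. The KRT7 region 2.41 kb before the start went from 100 in both PBS libraries to 218, 136 and 191 (0.82 ± 0.22, limma adjusted p = 0.0053). KRT15, at the region 3.23 kb upstream, went from 116 and 113 to 208, 154 and 208 (0.71 ± 0.22, limma adjusted p = 0.015). KRT14 and KRT18 starts did not pass: KRT14 went from 35.1 and 42.4 to 78.7, 60.3 and 72.0, without overlap (0.84 ± 0.32, limma adjusted p = 0.065), and KRT18 changed by 0.28 ± 0.32 (limma adjusted p = 0.65).

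The 1 region that fell in SCC1 lay 3.52 kb past the end of KRT6B (chr12:52836362-52836917), between KRT6B and KRT75, and went from 96.3 and 74.8 to 77.4, 25.3 and 31.3 (-1.08 ± 0.33, limma adjusted p = 0.015). The groups overlapped. It lost its call in 7 of 14 alternatives. Beside these changes, CD14, the 1 of 4 leukocyte markers with a region at its start, fell from a mean of 86.9 to 35.1 in SCC1, and the summed signal of the 3 fibroblast markers with a region went from 142 to 211. PTPRC, CD3E and CD79A had no region at their starts. Their part in the result was not tested.

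**Figure D4:**
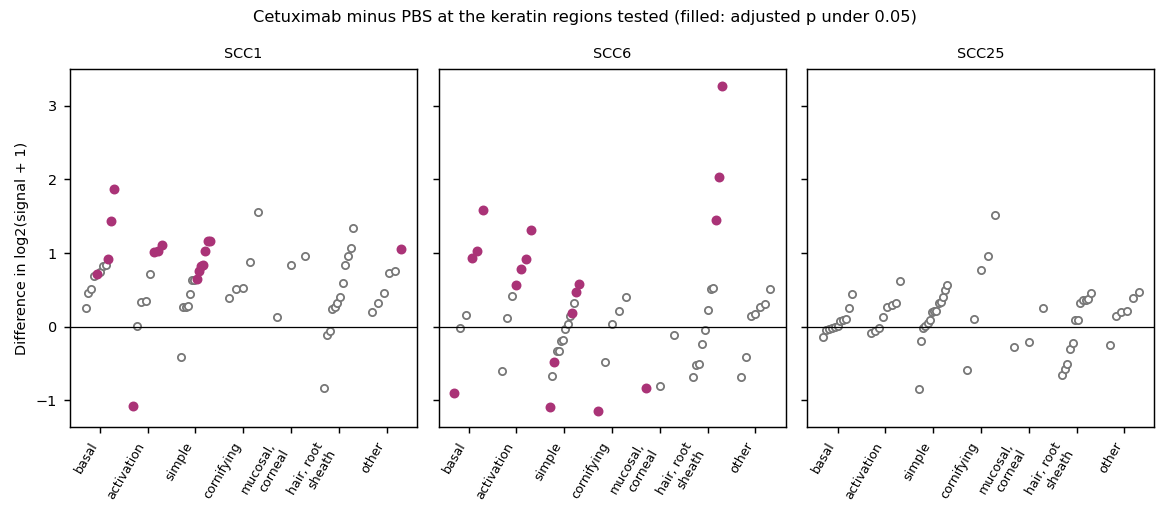
Change in log2(signal + 1) with cetuximab at each keratin region tested in each line, by kind of keratin. Each point is 1 region, and filled points passed the test at an adjusted p of 0.05. Filled points lie above 0 in SCC1 apart from 1 activation region, on both sides of 0 in SCC6, and none is filled in SCC25.

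In SCC6 53 keratin regions were tested, of which 13 rose (24.5%, against 16.9% of all regions) and 5 fell (9.43% against 10.6%), so the share that fell was near that of all regions. In 15 every cetuximab library lay above every PBS library (23.1% of all regions) and in 10 below (17.2%). With each library centred on its median 10 rose and 9 fell, and with quantile normalization 13 rose and 9 fell. The median change of all regions was 0.11 before centring and -0.06 after it. The 3 rises with the smallest adjusted p were at elements past the ends of KRT71 and KRT72 on chromosome 12, whose untreated signal was lower in SCC6 than in both other lines.

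KRT71 and KRT72 encode type II keratins of the inner root sheath of the hair. The element 5.20 kb past the end of KRT72, between KRT74 and KRT72, went from 3.62, 3.35 and 1.09 to 28.3, 35.3 and 34.7 in SCC6, a log2 change of 3.27 ± 0.48 (limma adjusted p = 6.4e-07). Untreated SCC1 had 18.2 and 19.0 there and untreated SCC25 19.6, 23.1 and 15.3. The element 4.62 kb past the end of KRT71, between KRT5 and KRT71, went from 9.67, 8.70 and 4.35 to 29.3, 35.3 and 33.1 (2.03 ± 0.38, limma adjusted p = 4.7e-05), and the region 2.37 kb past the end of KRT72 from 27.8, 30.1 and 20.7 to 49.5, 85.4 and 89.9 (1.45 ± 0.26, limma adjusted p = 1.8e-05). All 3 were without overlap and passed in each of 15 alternatives. None is at a gene start, and KRT71 and KRT72 had no region at a start.

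The activation keratins rose in SCC6 at 4 of 7 tested regions and fell at 0 (16.9% and 10.6% of all regions). The KRT17 start went from 45.9, 43.5 and 53.3 to 66.7, 98.4 and 85.0 (0.78 ± 0.21, limma adjusted p = 0.0042), and the KRT16 region 2.83 kb upstream from 19.3, 26.1 and 30.5 to 46.5, 39.0 and 61.5 (0.93 ± 0.27, limma adjusted p = 0.0086). Neither overlapped. A further KRT17 region 1.24 kb upstream, chosen after its values were seen, rose by 1.31 ± 0.34 (limma adjusted p = 0.0025). The region past the end of KRT6B, which fell in SCC1, rose here from 123, 95.7 and 104 to 164, 161 and 154 (0.57 ± 0.14, limma adjusted p = 0.0023).

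At basal keratins 3 of 6 tested regions rose in SCC6 and 1 fell. The KRT15 region 0.85 kb upstream rose from 27.8, 22.1 and 4.35 to 48.5, 44.6 and 41.0 (1.58 ± 0.46, limma adjusted p = 0.018). The KRT5 region 1.05 kb upstream rose from 15.7, 23.4 and 25 to 34.3, 39.9 and 49.9 (0.93 ± 0.29, limma adjusted p = 0.012), while the KRT5 and KRT14 starts were removed by the filter on low signal in this line, at 3.03 to 8.60 and 1.01 to 2.79 with cetuximab. The KRT15 region 3.23 kb upstream fell from 209, 168 and 224 to 108, 87.3 and 126 (-0.90 ± 0.15, limma adjusted p = 3.4e-06). Cetuximab libraries were below every PBS library at this region.

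Of 14 tested regions at simple keratins, 3 were higher and 2 lower with cetuximab in SCC6 (16.9% and 10.6% of all regions). KRT7 rose at the region 2.41 kb upstream, from 127, 85.0 and 115 to 137, 162 and 149 (0.47 ± 0.15, limma adjusted p = 0.018), and fell at its intron, from 84.6, 68.9 and 56.6 to 29.3, 40.8 and 27.4 (-1.09 ± 0.24, limma adjusted p = 0.00053). KRT8 rose at the region 3.13 kb upstream, from 91.8, 91.0 and 112 to 157, 151 and 132 (0.57 ± 0.15, limma adjusted p = 0.0033), and fell at the region 22.40 kb upstream, with means of 175 and 126 (-0.48 ± 0.13, limma adjusted p = 0.0055). The largest KRT8 region changed by 0.19 ± 0.07 (limma adjusted p = 0.048), a call lost in 13 of 15 alternatives. The KRT18 and KRT19 starts did not pass, with changes of -0.03 ± 0.22 and -0.33 ± 0.21.

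In SCC25 none of 59 keratin regions passed the limma test, where 0.315% of all regions did. At an unadjusted p under 0.05 there were 6, and edgeR and DESeq2 on recovered reads also called 0. Reads in regions were 3214656, 7385401 and 2513828 with cetuximab and 13408698, 6533269 and 5509462 with PBS. Peaks were listed over 3, 20 and 1 keratin regions with cetuximab and 35, 22 and 18 with PBS. Over all regions 272 passed, and 8, 6 and 0 did without PBS replicate 1, 2 or 3. A count of 0 here does not show that no keratin region changed. In 7 regions every cetuximab library lay above every PBS library (6.08% of all regions) and in 3 below (12.3%). The KRT5 start had 52.8, 58.4 and 42.4 with PBS and 43.6, 70.3 and 72.6 with cetuximab (0.25 ± 0.23), and the KRT17 start 75.7, 49.8 and 55.1 and then 52.0, 56.0 and 69.1 (-0.02 ± 0.22). Both overlapped. The KRT75 start, open in this line, changed by -0.22 ± 0.26. Among the 7 regions without overlap was KRT7 2.41 kb upstream, with 50.1, 66.3 and 67.0 and then 84.4, 99.0 and 86.8 (0.56 ± 0.19, limma adjusted p = 0.20). KRT8 3.13 kb upstream had 50.1, 54.8 and 55.1 and then 59.1, 63.2 and 62.0 (0.20 ± 0.21, limma adjusted p = 0.72).

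**Figure D5:**
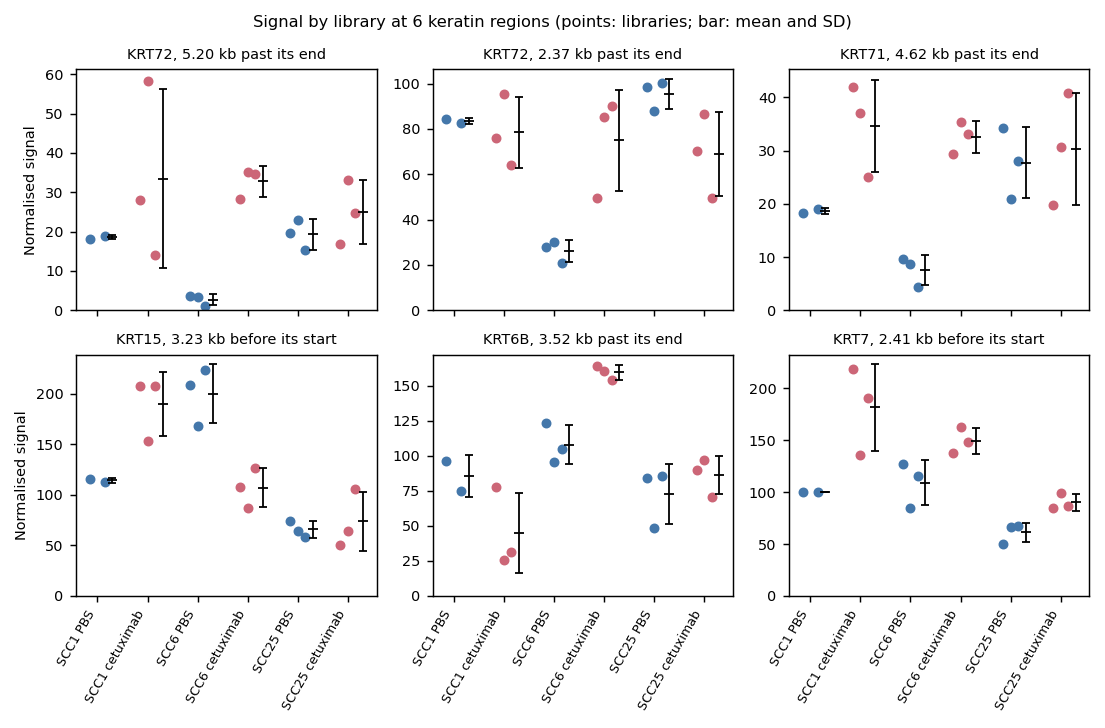
Signal in each of the 17 libraries at 6 keratin regions, as points by group (blue PBS, red cetuximab), with the mean and SD beside them. The KRT71 and KRT72 elements rise in SCC6, the KRT15 region rises in SCC1 and falls in SCC6, the KRT6B region does the reverse, and the KRT7 region rises in SCC1 and SCC6.

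The regions that rose in both SCC1 and SCC6 were KRT16 2.83 kb upstream, KRT17 at its start, KRT8 3.13 kb upstream, KRT7 2.41 kb upstream and KRT5 7.26 kb past the gene end. The last was low in all lines, from 2.23 to 31.6 in SCC1 and SCC6, and lost its call in 10 of 14 alternatives in SCC1 and 9 of 15 in SCC6. KRT6B past its end and KRT15 3.23 kb upstream passed in both lines in opposite directions.

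In a fit over all lines with the line as a covariate, 8 of 58 keratin regions were higher with cetuximab (13.8%, against 5.14% of all regions) and 0 lower (7.04% of all). They were KRT7 2.41 kb upstream (0.60 ± 0.12, limma adjusted p = 0.0024), KRT16 2.83 kb upstream (0.84 ± 0.18, limma adjusted p = 0.0048), KRT8 3.13 kb upstream (0.57 ± 0.13, limma adjusted p = 0.0050), the starts of KRT17 (0.59 ± 0.17) and KRT80 (0.41 ± 0.13), the KRT71 and KRT72 elements and KRT8 40.82 kb upstream. KRT80, a type II keratin found in many epithelia, went from 101 and 59.2 to 122, 77.9 and 127 in SCC1, from 116, 119 and 117 to 154, 123 and 163 in SCC6 and from 56.1, 47.6 and 52.6 to 61.9, 73.6 and 83.2 in SCC25. Its groups overlapped in SCC1 and not in the other 2 lines, and its call was lost in 14 of 25 alternatives.

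Whether the change with cetuximab differed between lines was tested as the interaction of line and treatment, and 8 of 58 keratin regions passed (13.8%, against 13.2% of all regions). The 2 KRT72 regions and KRT15 3.23 kb upstream had the smallest p-values, at limma adjusted p = 0.00057, 0.0029 and 0.0021. Leaving out either SCC1 cetuximab replicate 1 or SCC1 PBS replicate 1 gave 5 regions, and leaving out SCC1 cetuximab replicate 2 gave 13. The share of keratin regions was near that of all regions. The region 2.31 kb past the end of KRT14 rose in SCC1, from 53.3 and 48.0 to 109, 74.0 and 111, and had 10.9, 8.70 and 4.35 and then 3.03, 0.928 and 4.30 in SCC6. The KRT19 region 2.04 kb upstream went from 23.4 and 46.9 to 100, 74.0 and 57.9 in SCC1, without overlap.

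Keratin filaments are anchored at desmosomes and hemidesmosomes, and 17 genes of these junctions were read at their starts. Here and for the transcription factors below, the shares in brackets are over all regions. Only 15.8% of all regions lay within 1 kb of a protein-coding start, so these shares are not those of start regions. In SCC1 5 of 14 tested rose and 0 fell (4.58% and 6.56% of all regions): the hemidesmosome integrin ITGB4 (1.13 ± 0.21 on the log2 scale, limma adjusted p = 1.4e-05; means 110 and 251), its partner ITGA6, the plakophilins PKP1 and PKP3 and the envelope protein EVPL. ITGA6 was near the threshold (limma adjusted p = 0.049), and peaks were listed over it in 0 SCC1 libraries. Calls at these genes and at the factors below were not followed through the alternatives. In SCC6 0 rose and 3 of 13 fell (16.9% and 10.6% of all regions), by at most 0.42: DSP, PKP2 and DST. In SCC25 0 of 14 passed. In untreated cells the desmosomal cadherin DSG3 was at 0.988 ± 0.28 (SD, n = 3) in SCC6, against 42.8 ± 9.0 (n = 2) in SCC1 and 51.3 ± 1.1 (n = 3) in SCC25. PKP1 was at 6.39 in SCC6 against 67.2 and 95.3, and DSC3 at 54.4 against 127 and 264, so SCC6 was the lowest line at these 3, as at the KRT5 and KRT14 starts (limma adjusted p of 1.3e-07, 1.3e-06 and 5.3e-06 for SCC6 against SCC1). They were the 3 of 14 tested that were lower in SCC6 than in SCC1 (30.5% of all regions were). The other 2 that passed were higher in SCC6 (30.7% of all), namely PKP2 (log2 difference 0.55 ± 0.11, limma adjusted p = 0.00063) and the envelope protein PPL (1.03 ± 0.22, limma adjusted p = 0.00072), and DSP did not pass (0.21 ± 0.17, limma adjusted p = 0.30). JUP, PLEC and EPPK1 had start regions at 1 read in all libraries, and were not tested. Peaks were nevertheless listed over them. In SCC1, SCC6 and SCC25 these were in 4, 6 and 5 libraries at JUP, 2, 4 and 5 at PLEC and 2 each at EPPK1. These 3 starts therefore have no measured level here.

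Of 18 transcription factors of keratinocytes, 17 had a region at the start. TP63, the regulator of stratified epithelia, was lower in SCC6 than in SCC1 (18.5 ± 5.5 against 37.3 ± 0.62, log2 difference -1.01 ± 0.32, limma adjusted p = 0.014). Peaks were listed over this TP63 region in 0 SCC1, 4 SCC6 and 2 SCC25 libraries. OVOL1 was also lower in SCC6 than in SCC1 (-1.19 ± 0.20). Of the 17, 9 were higher in SCC6 than in SCC1 (30.7% of all regions), among them CEBPA (2.10 ± 0.19) and MAF (2.32 ± 0.24). CEBPA and MAF were also higher in SCC25 than in SCC1 (1.08 ± 0.19 and 1.69 ± 0.24). With cetuximab 3 of 17 rose and 1 fell in SCC1 (4.58% and 6.56% of all): NOTCH1 rose from 79.4 to 197 (1.22 ± 0.23, limma adjusted p = 2.8e-05), KLF4 and GRHL1 also rose and EHF fell, to near the floor. Peaks were listed in 0 SCC1 libraries at KLF4 (limma adjusted p = 0.040) and at EHF. In SCC6 TFAP2A, TFAP2C, EHF and CEBPB fell (10.6% of all regions did), by 0.20 to 0.82. In SCC25 0 of 17 passed. Among 9 other intermediate filament genes, 6 had a region at the start. LMNA, for a nuclear lamin, rose in SCC1 (0.81 ± 0.19, limma adjusted p = 0.0013), and LMNB1 fell in SCC6 (-0.26 ± 0.10). VIM, the mesenchymal filament gene, was lower in untreated SCC1 than in both other lines. The log2 difference to SCC1 was 0.91 ± 0.22 in SCC6 (limma adjusted p = 0.0020) and 0.87 ± 0.22 in SCC25 (limma adjusted p = 0.0037). SCC25 against SCC6 did not pass (-0.04 ± 0.20, limma adjusted p = 0.88).

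As a check of the squamous label, 6 markers were read. Each marker was read at its promoter region with the highest mean signal. In untreated SCC6, DSG3 and KRT14 were near the floor, with means of 0.988 and 1.66, and KRT5 had 21.4, TP63 18.5, CDH1 79.8 and EPCAM 121. In untreated cells the 6 regions summed to 363 (SCC1), 243 (SCC6) and 334 (SCC25). The SCC6 sum rests mainly on EPCAM and CDH1. KRT5 and KRT14 belong to the keratin regions themselves, so they are not a separate check. Of 5 fibroblast markers 3 had a region, and 0 of 3 endothelial markers had one. COL1A1 was at 101 or more in every group. COL1A2 had PBS means of 39.2 in SCC1, 10.4 in SCC6 and 28.9 in SCC25. DCN was at 3.68 or less, but peaks were listed over it in 6 SCC6 libraries, so its SCC6 value is not read as a level. The part of these markers in the differences between lines was not tested. No RNA or protein level was read here.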

How the data were processed

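Per the labels and the study's methods, the authors trimmed reads with Trim Galore 0.5.0, aligned them to hg19 (GRCh37) with Bowtie2 2.3.2, filtered them with Picard 2.18 (duplicates, mitochondrial reads) and SAMtools 1.9 (unmapped or poor alignments), called peaks with MACS2 and compared regions with DiffBind. Their cutoffs are not given in the sources used here. The deposited region table holds a signal per library, whole reads (0 set to 1) times a scaling factor. Dividing by the column minimum gave whole reads for 100% of values (tolerance 0.001). The deposited peak lists hold a fold enrichment (a ratio) and −log10 p and q values, and only positions and the ratio were used.

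Signal was tested with limma 3.58.1 (trend, robust, two-sided, R 4.3.3) on log2(signal + 1), leaving out the 25% of regions with the lowest mean, with Benjamini-Hochberg adjustment at 0.05 over 86298 or 86315 regions. Each line was fitted alone, all lines with line as covariate and interaction, and PBS groups in 1 fit. On recovered reads edgeR 4.0.16 called 11060, 24591 and 941 regions in SCC1, SCC6 and SCC25, and DESeq2 1.42.0 was a further alternative. Genes and starts are from GENCODE release 44 on GRCh37. The fit was tested on simulated data. Replicates differed by more than counting noise (chi-square per degree of freedom 1.88 to 3.45 over 16 pairs). Uniqueness is the share of 50-base windows found once in the genome.

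Keratin regions, gene lists and alternatives were chosen with earlier results of these data known. Named regions are, for each of the main keratins, the one with the highest mean signal within 1 kb of a start, up to 3 higher and 3 lower calls with the smallest adjusted p per comparison (5 for the interaction), regions called alike in 2 lines and those nearest the 10 kb limit. Some promoter sequences and a gene of these lists are not reported here.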

Additional observations from a re-analysis of the deposited data

Results flagged for a closer look

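At 8 keratin regions the change with cetuximab differed between the lines by the interaction test (limma, adjusted over all regions), and all of them lay away from a canonical start. The region 2.37 kb past the end of KRT72 (adjusted p = 0.000567) had log2 changes of -0.11 in SCC1, 1.45 in SCC6 and -0.50 in SCC25, and the region 5.20 kb past its end (0.00292) had 0.59, 3.27 and 0.32. KRT71 4.62 kb past its end (0.029) had 0.83, 2.03 and 0.09. KRT15 3.23 kb upstream (0.00207) had 0.71, -0.90 and 0.10, and KRT6B 3.52 kb past its end (0.0136) had -1.08, 0.57 and 0.27. KRT14 2.31 kb past its end (0.0256) rose in SCC1 by 0.92, with SCC6 near the floor. KRT3 3.24 kb upstream (0.03) had 0.96, -0.84 and -0.21, and KRT19 2.04 kb upstream (0.0313) had 1.16, -0.17 and -0.20. The values for KRT14, KRT3 and KRT19 were chosen to be shown after they were seen. Over 24 alternatives the 2 KRT72 regions and KRT15 passed in all 24, KRT6B in 23, KRT3 in 20 and the others in 18.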

How the results depend on the processing

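Counts of keratin regions called moved most in SCC1, where 16 were called. They were 26 with each library centred on its median, 10 with no filter, 10 by DESeq2, and 1 to 20 with single libraries left out. In SCC6 the 18 became 10 with all libraries in 1 fit, and 14 to 16 with single libraries left out. In SCC25 the count was 0 in every alternative. Over all lines the 8 became 17 by DESeq2 and 6 to 11 with single libraries left out. For the interaction the 8 became 17 by centring, edgeR and DESeq2 alike, and 5 to 13 with single libraries left out. Between PBS groups every count stayed within 1.5 times of 35, 24 and 39, at 29 to 36, 16 to 26 and 35 to 41 with single libraries left out. The split moved where the trend with GC content was removed, to 19 higher and 15 lower in SCC6 than in SCC1, and with centring on the median, to 3 higher and 26 lower in SCC25 than in SCC1. The cause of these moves was not tested.

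Replicate numbers did not pair the samples: the 8 same-numbered pairs had correlations of -0.042 to 0.026, and not every sample correlated best with its own number. With a replicate block the counts were 22 in SCC1, 17 in SCC6, 0 in SCC25 and 3 over all lines.

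Of 69 calls at named regions, 37 held under every alternative, 32 were lost in at least 1 and 0 changed direction. In SCC1, where reads in regions were 2194851 to 4171650, all 10 were lost in at least 1.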
